A study of Mus musculus with 100 samples.

Results

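The genes described here are 10 genes linked to activated fibroblasts and to the matricellular compartment of connective tissue, namely Postn, Cthrc1, Moxd1, Cd248, Aebp1, Tnc, Fap, Lrrc15, Anpep and Sparc. They are 10 of the 17310 genes in the count table. They were selected on measured values of these same libraries, for a rise in injured over contralateral joints, so their injury response is given below as a description with no test. The selection stated no numerical threshold. RNA was sequenced from whole knee joints, trimmed to the joint ends of femur and tibia with traces of soft tissue, of mice of the inbred strains MRL/MpJ, C57BL/6 and STR/ort. The labels give an age of 10 weeks for every library, which in the study's methods is the age at injury, so the mice of the 1-week and 2-weeks groups were older than those of the 0-day groups when the joints were taken. The right knee was injured by a single tibial compression of 10 to 12 N, which ruptures the anterior cruciate ligament, and the other knee of injured mice was the uninjured contralateral joint. The 0-day groups held uninjured joints with 4 libraries per strain. The 1-day and 2-weeks groups held 5 injured and 5 contralateral libraries per strain, and the 1-week groups held 5 injured libraries per strain with 4 contralateral libraries in MRL/MpJ, 5 in C57BL/6 and 4 in STR/ort, 100 libraries in 21 groups. The labels name no engineered allele, and no group is labelled as sham-loaded.

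Activated fibroblasts are the stromal cells that fill a wound with matrix. Matricellular proteins are secreted into that matrix and bind collagens and cell receptors without forming the load-bearing fibres themselves, and their levels are low in most resting adult tissue and high in development, repair and fibrosis. In a knee joint the fibroblast-rich tissues are the synovium, the capsule, the ligaments and the tendon insertions, and bone-forming cells and cartilage also produce some of these proteins. STR/ort mice develop osteoarthritis spontaneously, MRL/MpJ mice are known for tissue repair with little scarring, and C57BL/6 is a common reference strain.

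Between 6182016 and 20986027 reads per library were assigned to genes. Levels are given as CPM, the share of a gene in the scaled library size, and every member had counts in every library, from 6 counts for Moxd1 in its lowest library to 100490 for Sparc in its highest. The 2-weeks libraries were made in a second experimental batch, so time and batch cannot be told apart there, and no test compares 2-weeks libraries with earlier ones. By its deviation from the group means over genes with a mean above 1 CPM, MRL/MpJ injured replicate 4 at 2-weeks stood farthest from its group of the 100 libraries (root mean square 0.35 on the log2 scale, median 0.20), with a fast muscle marker sum of 96105 CPM against 44893 to 53439.8 CPM in the other 4. No pair of libraries within a group, of 190 pairs, held identical counts. Markers of 11 other cell types or tissues of the joint, 6 genes each, were all detected in all groups. The summed level of the fast muscle markers ran from 12577 to 96105 CPM per library and that of the tendon markers from 301 to 4594 CPM. In a bulk sample, fewer cells of a type and less RNA per cell cannot be told apart.

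Per kilobase of exon, the member with the highest level was Sparc, which encodes osteonectin, a collagen-binding protein abundant in bone matrix. Its mean in the 0-day joints was 992 CPM per kilobase in MRL/MpJ, 1838 in C57BL/6 and 1358 in STR/ort. On the same length-scaled measure the 0-day MRL/MpJ joints held 70.3 for Postn, 63.3 for Tnc, 45.1 for Fap, 22.2 for Aebp1 and 16.4 for Cthrc1. Cd248 at 9.76, Anpep at 5.46, Lrrc15 at 1.21 and Moxd1 at 0.556 were lower. The members thus ran from an abundant matrix transcript to genes with few counts, and Moxd1 had between 6 and 654 counts per library. The genes lie on 9 chromosomes of the mouse assembly GRCm38, with Aebp1 and Sparc both on chromosome 11 but far apart, at 5861866 to 5872248 and 55394159 to 55420080.

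RefSeq promoter sequence of the build GRCm38.p6 was matched for 7 of the 10 members, with 2 start sites each for Postn and Tnc. Cthrc1, Cd248 and Fap had no entry. The 250 bases before each start were searched on both strands for the TATA box TATAAA, for the common proximal element CCAAT, for the AP-1 site TGANTCA, for the TEAD site GGAATG, for the SMAD-binding element CAGACA and for the RUNX site TGTGGT. Matched stretches of 4 members are shown, with the match in capitals and each read 5′ to 3′ on the gene's own strand. Postn is shown with the 100 bases before its second start site, chr3:54361007-54361106 (plus strand), and the others with 10 bases on each side of the match: Sparc at chr11:55420101-55420126, Lrrc15 at chr16:30283291-30283317 and Tnc at chr4:64047126-64047151 and chr4:64046992-64047017 (all minus strand).
Postn: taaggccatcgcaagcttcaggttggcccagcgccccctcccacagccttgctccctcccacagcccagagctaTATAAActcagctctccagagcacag
Sparc: ctgaccctcaTGTCTGtttaggcagg
Lrrc15: ccccgtgcggTGACTCAcgaggggctg
Tnc, outer stretch: ttttcttcacTATAAAttgtatgcaa
Tnc, inner stretch: tgggaaaggaTGTCTGgaggcgaggc
The TATAAA of Postn began 26 bases before the start site, and the TATAAA of Tnc began 126 bases before its outer start. The match of Tnc nearest to a start was the SMAD-binding element as its reverse complement, 71 bases before the inner start. Sparc held the same element, also reversed, 36 bases before the start, and Lrrc15 held the AP-1 site 53 bases before it. The 100 bases before these starts overlapped 2 annotated exons for Sparc, 1 for Lrrc15, 1 for the inner start of Tnc and 0 for the second start of Postn. The SMAD-binding match of Tnc lies after its outer start, at 64047015. In the same window of the 32851 mouse promoters the TATA box was found in 12.4%, the CCAAT element in 33.8%, the AP-1 site in 6.75%, the TEAD site in 12.6%, the SMAD-binding element in 17.1% and the RUNX site in 14.0%. No motif was present in all matched members, and a match is a description of the sequence, not a site in use.

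The response to injury, which chose these genes, was largest in Postn, Cthrc1, Moxd1 and Lrrc15 at 1-week. In the mean log2 fold change over strains, Cd248 (1.19 against 1.18), Sparc (0.49 against 0.42) and Fap (0.43 against 0.27) were larger at 2-weeks than at 1-week. A secreted protein of injured and collagen-rich tissue, periostin, is the product of Postn. At 1-week its contralateral libraries stood at 203, 163, 244 and 324 CPM in MRL/MpJ and its injured libraries at 649.6, 762, 1068, 790.1 and 599.7 CPM. In C57BL/6 the contralateral values were 388, 469, 755, 524 and 404 CPM and the injured values 1817, 1939, 1684, 1649 and 2405 CPM. In STR/ort they were 919, 536, 434 and 876 CPM against 8379, 5725, 5524, 4421 and 4076 CPM. Every injured library was above every contralateral library in each strain, and the STR/ort injured libraries were above all other libraries of the series. The log2 fold change was 1.76 ± 0.25 (SE) in MRL/MpJ, 1.93 ± 0.23 in C57BL/6 and 3.02 ± 0.26 in STR/ort.

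Cthrc1, which encodes a secreted glycoprotein of matrix-producing fibroblasts, had log2 fold changes of 2.01, 2.33 and 2.64 at 1-week in MRL/MpJ, C57BL/6 and STR/ort, and its STR/ort injured libraries read 578, 460.2, 378, 301 and 313 CPM against 84.2, 63.7, 34.4 and 79.0 CPM in the contralateral joints. Moxd1, a relative of dopamine beta-hydroxylase that resides in the endoplasmic reticulum, had the largest fold change of the members in each strain at 1-week, at 2.36 ± 0.35, 2.74 ± 0.29 and 3.49 ± 0.27 on the log2 scale. Its STR/ort injured libraries read 75.9, 45.7, 41.8, 28.5 and 38.0 CPM and the contralateral ones 3.27, 2.90, 2.71 and 7.43 CPM. Lrrc15, a leucine-rich repeat membrane protein that TGF-beta induces in fibroblasts, was higher by 2.03, 1.93 and 2.58. The injured and contralateral libraries did not overlap for any of these 3 genes in any strain at 1-week.

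Aebp1, Cd248 and Anpep formed a middle tier. Aebp1 encodes a secreted collagen-binding protein with a carboxypeptidase-like domain, Cd248 the stromal and pericyte lectin endosialin, and Anpep the membrane-bound aminopeptidase N (CD13). At 1-week Aebp1 was 2.83-fold (MRL/MpJ), 2.64-fold (C57BL/6) and 2.76-fold (STR/ort) higher in injured joints. Its mean level was not the same, with injured joints at 232 ± 22.7 (SD, n = 5), 343 ± 49.3 (SD, n = 5) and 877 ± 193 (SD, n = 5) CPM in that order. Cd248 and Anpep had their smallest 1-week difference in STR/ort, 0.68 and 1.15, where the contralateral levels were highest. The 4 STR/ort contralateral libraries read 92.0, 129.7, 45.1 and 81.6 CPM for Cd248, overlapping the injured ones at 155, 157, 111, 139 and 137 CPM.

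Tnc, Fap and Sparc were above 1.5-fold in few or none of the comparisons. Tenascin C (Tnc) is a large matricellular glycoprotein of tendon and wounds, and Fap is a surface serine protease used as a marker of activated fibroblasts. Over the 9 strain and time comparisons, Tnc was above 1.5-fold in 2, Sparc in 1 and Fap in 0, while Moxd1 was above it in 9 and Postn in 8. The log2 fold change of Fap ran from -0.31 to 0.50, that of Sparc from -0.13 to 0.63 and that of Tnc from 0.03 to 0.82. In STR/ort at 1-week, Fap read 324, 353, 225 and 346 CPM in contralateral joints and 286, 278, 282, 282 and 342 CPM in injured joints. The highest Fap mean of all groups was thus in a contralateral group, unlike the other 9 members, whose highest mean was in the injured STR/ort joints at 1-week.

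**Figure D1:**
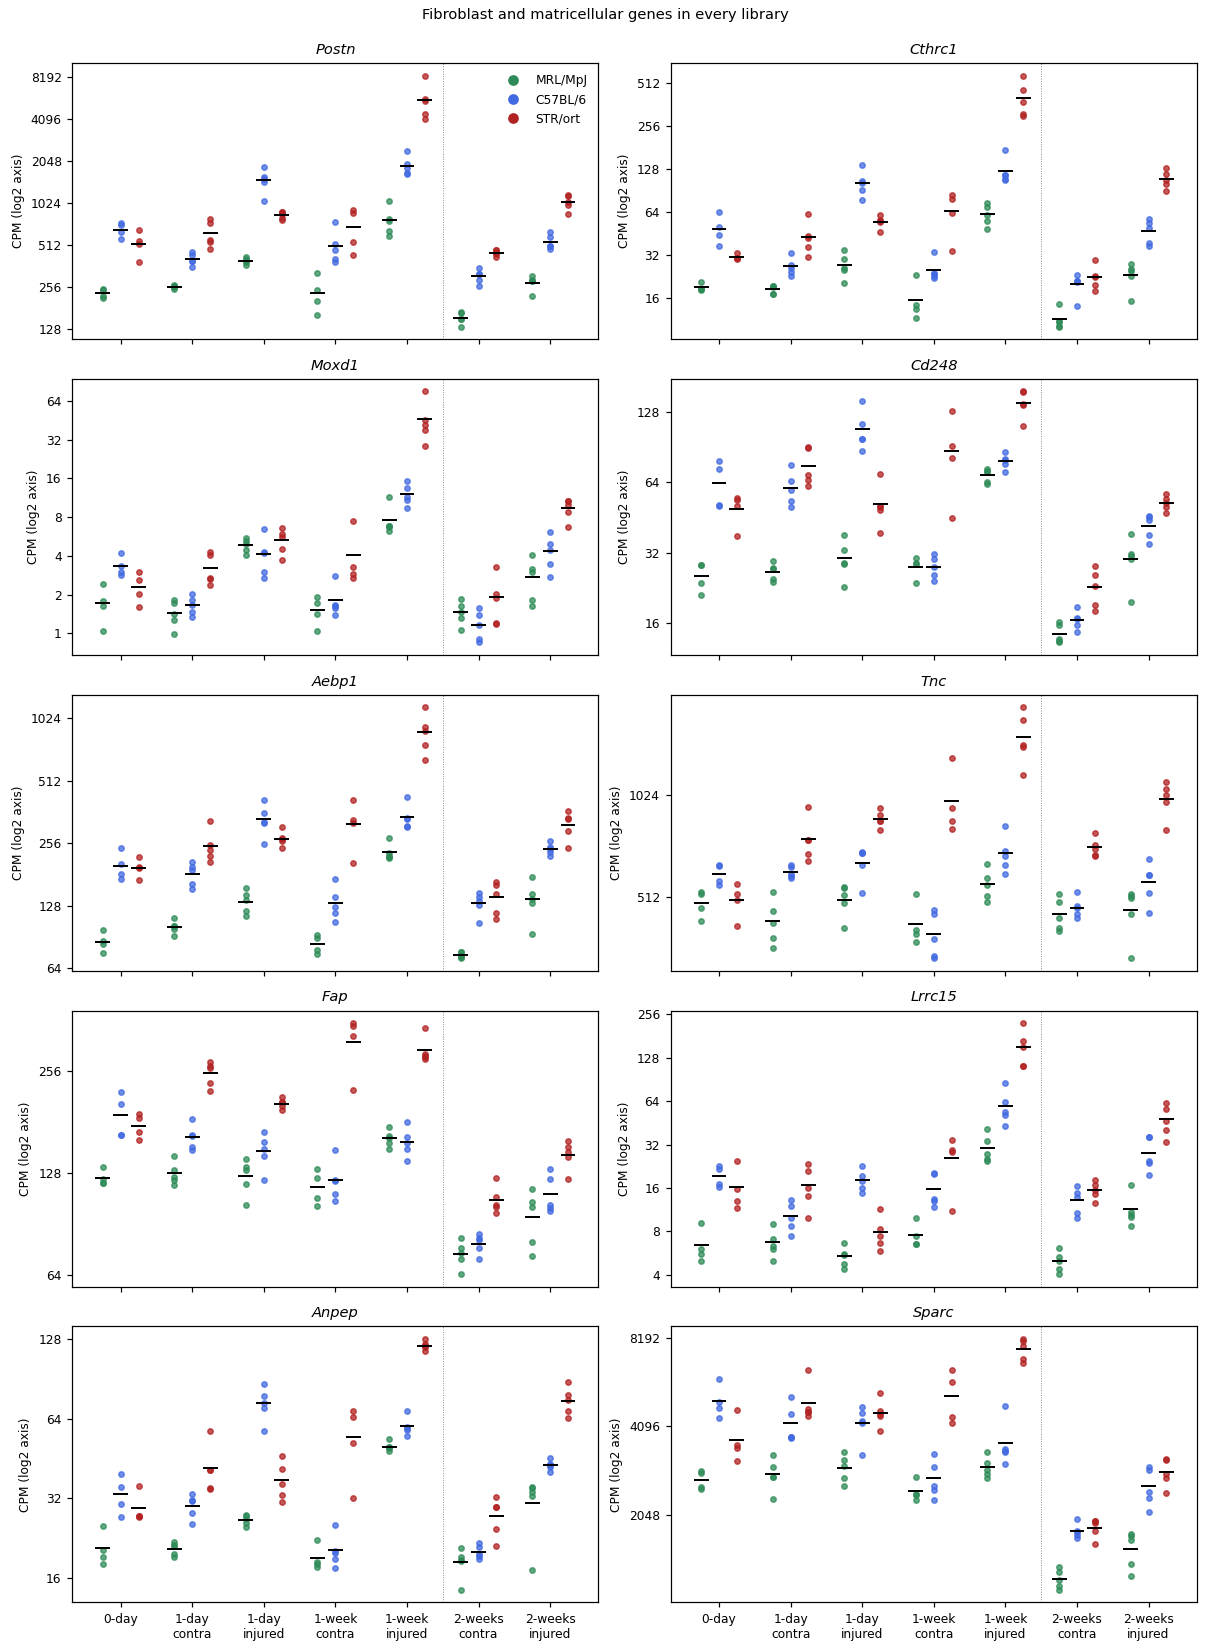
Level of each member in CPM (log2 axis) in every library, by joint and time, with points for libraries, bars for group means, colours for strains and a dotted line before the second experimental batch. The injured STR/ort libraries at 1-week are the highest group for 9 of the 10 members, with Postn at a mean of 5625 CPM, and Fap was above 1.5-fold in none of the 9 comparisons of injured with contralateral joints, Sparc in 1 and Tnc in 2.

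At 1-day the strains were ordered differently. C57BL/6 had 7 members with every injured library above every contralateral one, MRL/MpJ had 5 and STR/ort had 0, where the same held for 6.92%, 3.87% and 5.05% of all genes. Postn in C57BL/6 read 355, 438, 391, 396 and 457 CPM in contralateral and 1565, 1055, 1518, 1844 and 1450.2 CPM in injured joints, a log2 fold change of 1.86 ± 0.12. In STR/ort the values were 478, 792, 741, 557 and 538 CPM against 801, 887, 889, 780.3 and 849.7 CPM, which overlapped, at 0.42 ± 0.11. Anpep differed by 1.29 in C57BL/6 and by -0.17 in STR/ort. Lrrc15 was lower in injured STR/ort joints, at 5.89, 7.49, 8.35, 6.65 and 11.4 CPM against 9.87, 23.3, 21.1, 16.1 and 14.0 CPM with the highest injured library inside the contralateral range (-1.10 ± 0.20), and higher in injured C57BL/6 joints (0.84 ± 0.19), and Cd248 had the same pair of signs (-0.56 and 0.84). Moxd1 had its largest 1-day difference in MRL/MpJ, with 1.83, 1.73, 1.27, 1.41 and 0.982 CPM in contralateral and 4.94, 5.48, 4.08, 5.19 and 4.48 CPM in injured joints (1.78 ± 0.24).

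At 1-week every injured library was above every contralateral one for 8 members in MRL/MpJ, 8 in C57BL/6 and 7 in STR/ort, against 5.76%, 6.58% and 8.73% of all genes. At 2-weeks the counts were 5, 9 and 9, against 1.73%, 6.41% and 7.81%. Because the members were chosen on this contrast, these counts describe the choice. The median log2 fold change over the 10 members was 0.31, 0.86 and -0.02 at 1-day in MRL/MpJ, C57BL/6 and STR/ort, 1.46, 1.55 and 1.31 at 1-week, and 0.85, 0.98 and 1.21 at 2-weeks. The same median over all genes lay between -0.03 and 0.01. Of the 90 gene and comparison combinations, 81 were above 0, 55 were above 1.5-fold and 1, Fap in STR/ort at 1-day, had every injured library below every contralateral one.

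**Figure D2:**
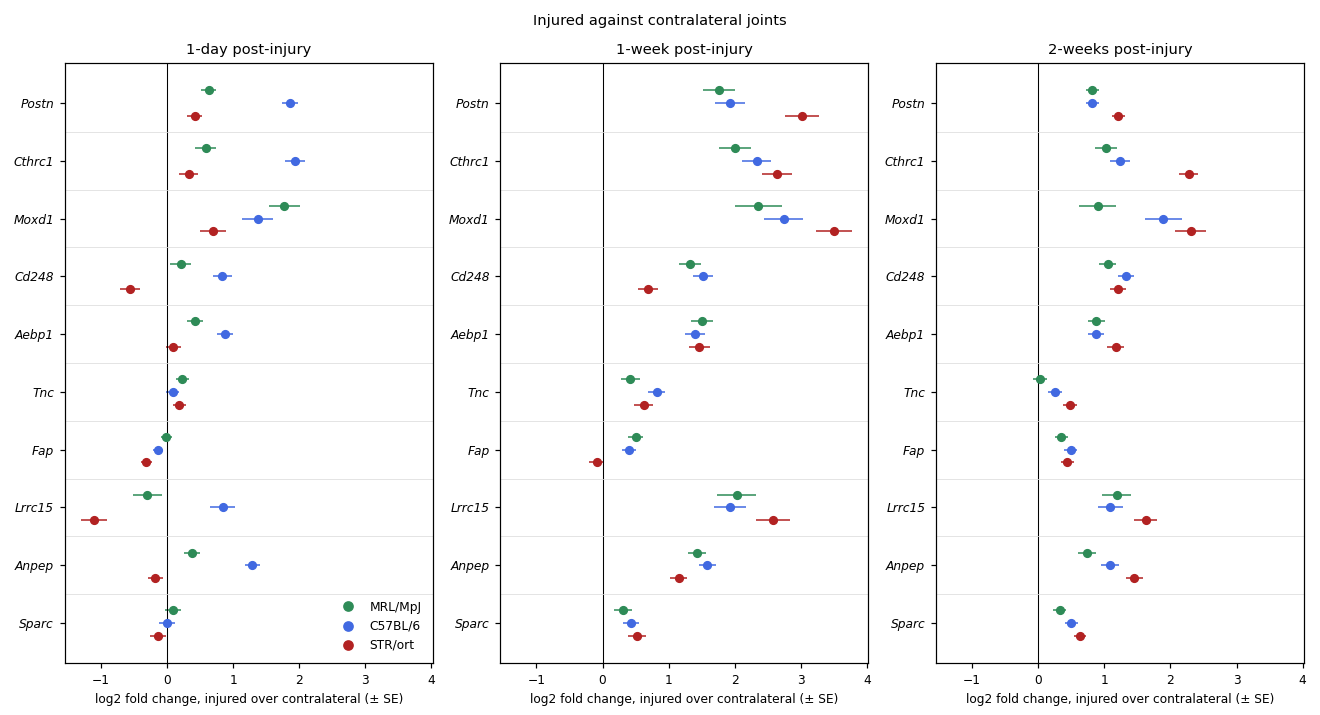
Log2 fold change of injured over contralateral joints (points, with SE bars) for each member in each strain at 1-day, at 1-week and at 2-weeks. C57BL/6 stands to the right at 1-day for most members, and at 1-week STR/ort stands farthest to the right for Postn (3.02), Cthrc1, Moxd1 and Lrrc15 but not for Cd248, Anpep or Fap.

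Between strains, the injured joints were ordered by time as well. At 1-day injured C57BL/6 joints stood above injured STR/ort joints in Postn (STR/ort minus C57BL/6 -0.83 ± 0.11 on the log2 scale), Cthrc1 (-0.92 ± 0.14), Cd248 (-1.08 ± 0.14), Lrrc15 (-1.21 ± 0.20) and Anpep (-0.97 ± 0.11). That difference was above 0 in 4 members. In Tnc the lowest STR/ort library read 810 CPM and the highest C57BL/6 library 695 CPM, and in Fap 196 and 170 CPM. At 1-week the same difference was 1.55 ± 0.22 for Postn, 1.68 ± 0.20 for Cthrc1 and 1.91 ± 0.21 for Moxd1, and it was above 0 for all 10 members. STR/ort minus MRL/MpJ at 1-week reached 2.84 ± 0.23 for Postn. These values use the injured libraries of the contrast that chose the genes and were not tested.

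At 2-weeks the labels give an injured and a contralateral joint a shared code, read here as the mouse, so the joints could be compared within 15 mice. Postn, Cthrc1, Moxd1, Cd248, Aebp1, Lrrc15 and Anpep were higher in the injured joint of all 15 mice, Sparc in 14, Fap in 13 and Tnc in 12. The within-mouse log2 ratio of Cthrc1 had a median of 1.17 in MRL/MpJ, 1.37 in C57BL/6 and 2.36 in STR/ort, and its 5 STR/ort ratios lay between 1.78 and 2.71. For Tnc the MRL/MpJ ratios ran from -0.63 to 0.33 and crossed 0. The lowest of them was that of replicate 4, whose injured library stands apart, at 339 CPM against 524 CPM, and replicate 3 was also below 0 at 459 CPM against 495 CPM. The log2 fold change of Tnc in MRL/MpJ at 2-weeks was 0.03 ± 0.10, and 0.16 without that library. All 5 STR/ort ratios were above 0, from 0.25 to 0.62.

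Tendon markers also stood higher in injured joints at 1-week. Their summed level in STR/ort at 1-week was 1298 to 2182 CPM in contralateral and 3325 to 4594 CPM in injured joints, and 6 of 6 tendon markers passed the test as higher there, with 5 of 6 in C57BL/6 and 5 of 6 in MRL/MpJ. Among them, Thbs4 is also a matricellular gene. Fast muscle markers stood lower in the injured STR/ort joints, at 12577 to 27570.1 CPM against 25064 to 49639 CPM in the contralateral ones, with 5 of 6 markers called lower. At 1-day 4 of 6 were called lower in STR/ort and 0 of 6 in C57BL/6. Sums of other markers also stood apart. In STR/ort at 1-week the summed endothelial markers stood at 277 to 337 CPM in contralateral and 387 to 494 CPM in injured joints, and the neutrophil markers at 12518 to 16714 CPM and 7664 to 10904 CPM, neither with overlap. The endothelial and mural cell sums were also higher without overlap in injured joints of C57BL/6 and STR/ort at 2-weeks, as was the cartilage sum of STR/ort, while the fat sum of C57BL/6 at 1-week and its neutrophil sum at 2-weeks were lower without overlap. The tendon sum at 2-weeks was higher without overlap too, at 301 to 331 CPM and 332 to 712 CPM in MRL/MpJ. It was 345 to 447 CPM and 653 to 1072 CPM in C57BL/6 and 598 to 773 CPM and 1121 to 1530 CPM in STR/ort. At 1-day the macrophage sum of C57BL/6 was 569 to 647 CPM in contralateral and 773 to 935 CPM in injured joints, with 2 of 6 markers called higher, and its neutrophil sum 13266 to 16440.3 CPM and 9145 to 11741 CPM. The macrophage sum of STR/ort was 523 to 614 CPM and 547 to 580.4 CPM, with 0 called. The tendon sum at 1-day was 942 to 1528 CPM and 1516 to 2096 CPM in C57BL/6 and 1128 to 2311 CPM and 1503 to 2308 CPM in STR/ort. In MRL/MpJ it was 511 to 649 CPM and 725 to 1181 CPM, without overlap. At 1-day 2, 2 and 0 of 6 tendon markers were called higher in MRL/MpJ, C57BL/6 and STR/ort, and 2 were called lower in STR/ort. The part of these cells and tissues in the members' values was not tested.

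**Figure D3:**
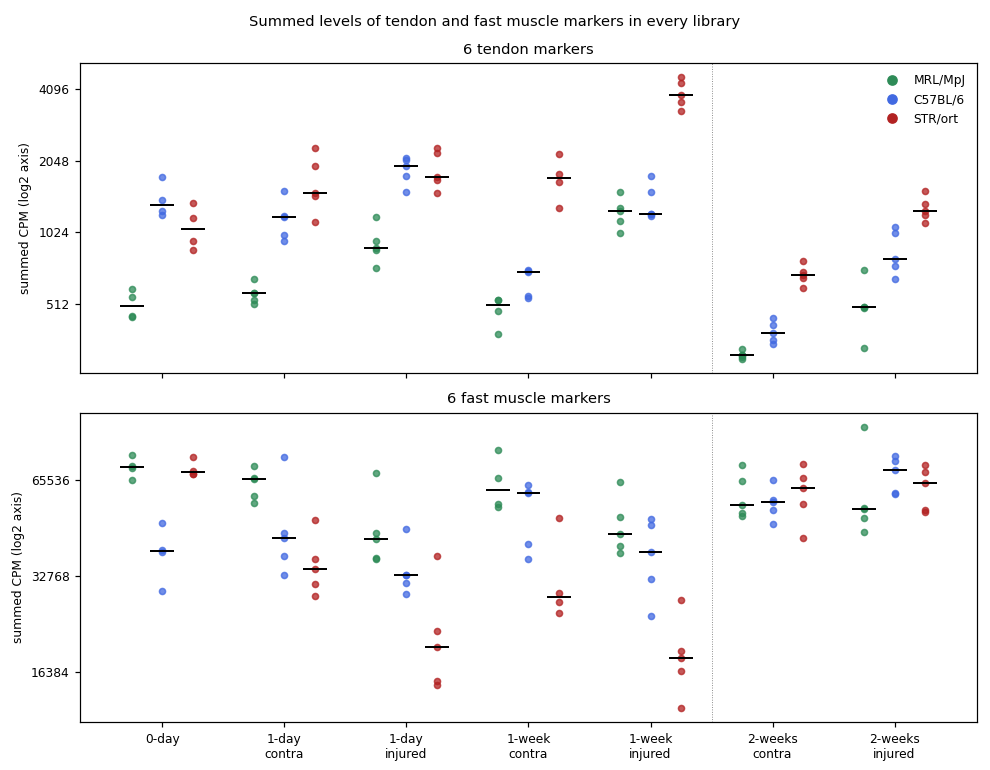
Summed CPM (log2 axis) of 6 tendon markers and of 6 fast muscle markers in every library, with points for libraries and bars for group medians. Tendon markers are highest in the injured STR/ort joints at 1-week (3325 to 4594 CPM), where fast muscle markers are lowest (12577 to 27570.1 CPM).

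Before any injury, MRL/MpJ joints had the lowest mean level of every member. The 0-day libraries took no part in the choice of the genes, so this comparison was tested with edgeR's quasi-likelihood F test, with a gene called when its Benjamini-Hochberg adjusted p over all genes was under 0.05 and its difference above 1.5-fold. C57BL/6 exceeded MRL/MpJ in 9 of 10 members, where 9.64% of all genes were called in that direction, and in all 10 members every C57BL/6 library was above every MRL/MpJ library. Lrrc15 read 5.59, 6.05, 9.13 and 5.0 CPM in MRL/MpJ and 21.6, 17.0, 16.3 and 22.9 CPM in C57BL/6, and had the largest log2 difference, 1.66 ± 0.22 (adjusted p = 1.14e-05). Postn read 247, 220.2, 216 and 242 CPM against 709, 639, 565 and 732 CPM, a log2 difference of 1.56 ± 0.12 (adjusted p = 2.51e-08). Cthrc1 (1.40), Cd248 (1.36) and Aebp1 (1.26) followed on the log2 scale, then Moxd1 (0.99), Sparc (0.93), Anpep (0.72) and Fap (0.66). Tnc differed by 0.33 ± 0.09, under 1.5-fold (adjusted p = 0.0091).

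STR/ort exceeded MRL/MpJ at 0-day in 5 of 10 members, with 8.34% of all genes called in that direction. These were Lrrc15 (1.37 ± 0.23 on the log2 scale, adjusted p = 0.00012), Postn (1.19 ± 0.12, adjusted p = 5.97e-07), Aebp1 (1.19 ± 0.11, adjusted p = 1.17e-07), Cd248 (0.96 ± 0.16, adjusted p = 9.49e-05) and Cthrc1 (0.72 ± 0.13, adjusted p = 0.000385). Postn in the 4 STR/ort libraries stood at 544, 519, 653 and 387 CPM, with no overlap with MRL/MpJ. Fap, Anpep and Sparc differed by 0.51, 0.52 and 0.46, under 1.5-fold, and Tnc by 0.04. Between STR/ort and C57BL/6 all 10 log2 differences were below 0, from -0.68 to -0.07, but only Cthrc1 passed (-0.68 ± 0.12, adjusted p = 0.000263), where 5.99% of all genes were called lower in STR/ort. Cthrc1 read 33.0, 30.2, 30.9 and 30.8 CPM in STR/ort and 50.1, 44.1, 37.2 and 64.3 CPM in C57BL/6, and that call was lost without the C57BL/6 library at the upper end (replicate 4, 0 calls), whereas without STR/ort replicate 1 or 3 the count was 2. With 1 RUVg factor the call was Sparc (-0.60, adjusted p = 0.0134) in place of Cthrc1 (-0.49), and Fap stood at 0.002, above 0. STR/ort, which had the highest mean of every member in injured joints at 1-week and at 2-weeks, thus had the highest mean of no member at 0-day.

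Markers of other tissues also differed between strains at 0-day. The summed tendon markers stood at 449.9 to 592 CPM in MRL/MpJ, 1211 to 1741 CPM in C57BL/6 and 864 to 1355 CPM in STR/ort, and the fast muscle markers at 65164 to 78483, 29355 to 47828 and 68092 to 77272 CPM. Of the 6 cartilage markers 6 were called higher in C57BL/6 than in MRL/MpJ, as were 6 of 6 tendon markers, and 6 of 6 fast muscle markers were called lower. Between STR/ort and MRL/MpJ 5 of 6 tendon markers were called higher, while fast muscle markers had 0 calls higher and 0 lower. The macrophage sum was 401 to 455 CPM in MRL/MpJ, 541 to 595 CPM in C57BL/6 and 338 to 418 CPM in STR/ort, and the osteoblast sum 1512 to 2060.0, 2259 to 3135 and 1979.6 to 2779 CPM. MRL/MpJ stood above both other strains without overlap in the erythroid sum, at 5067 to 6105 CPM against 3024 to 3609 and 2324 to 2552 CPM, and in the sum of the proliferation markers, at 3009 to 3534 CPM against 2174 to 2552 and 1574 to 1999.7 CPM. The neutrophil sum of MRL/MpJ, 14051 to 16876 CPM, stood above that of STR/ort, 11429 to 13549.6 CPM. The part of these markers in the strain differences was not tested.

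In the uninjured knees of injured mice the order changed, and STR/ort had the highest mean of all 10 members at 1-day, at 1-week and at 2-weeks. The contralateral libraries are on the lower side of the contrast that chose the genes, and such a choice favours genes with low contralateral values. The strain differences in these joints are therefore a description, with no p and nothing read from the counts past the thresholds of the 0-day comparison. Against MRL/MpJ, STR/ort stood past the thresholds as higher in 10 of 10 members at 1-day, 10 of 10 at 1-week and 6 of 10 at 2-weeks, where 13.1%, 13.7% and 7.97% of all genes were called higher. At 1-week the log2 differences ran from 1.09 (Sparc) to 2.07 (Cthrc1), and the libraries did not overlap for any of the 10 members. Aebp1 read 75.1, 78.3, 89.1 and 92.7 CPM in MRL/MpJ and 331, 415, 206 and 319 CPM in STR/ort (1.94 ± 0.17). Fap read 108, 103, 124 and 132 CPM against 324, 353, 225 and 346 CPM (1.44 ± 0.12), with no overlap. At 2-weeks the members past the thresholds were Postn (1.54), Lrrc15 (1.63), Cthrc1 (0.98), Aebp1 (0.92), Cd248 (0.65) and Tnc (0.65).

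STR/ort stood past the thresholds above C57BL/6 in 5 of 10 members at 1-day, 9 of 10 at 1-week and 1 of 10 at 2-weeks, with 5.73%, 13.1% and 4.92% of all genes called in that direction. The 1-week difference was largest in Cd248, at 25.6, 24.2, 27.9, 31.6 and 30.1 CPM in C57BL/6 against 92.0, 129.7, 45.1 and 81.6 CPM in STR/ort (1.65 ± 0.16), and Postn was not past the thresholds (0.46 ± 0.23). STR/ort replicate 3 was the lowest of the 4 STR/ort libraries for all members but Tnc at 1-week. The 1-day count was 2 without STR/ort replicate 2, the library with the highest level of Cthrc1, Anpep, Sparc, Aebp1, Postn, Tnc, Cd248 and Lrrc15 in its group, and 3 with housekeeping scaling. At 2-weeks the 1 member past them was Tnc (0.59 ± 0.10), and this count was 0 without C57BL/6 replicate 3 or 4 or STR/ort replicate 4 or 5, 2 without C57BL/6 replicate 5 and 4 with housekeeping scaling.

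C57BL/6 stood past the thresholds above MRL/MpJ in 5, 3 and 4 of 10 contralateral members at 1-day, at 1-week and at 2-weeks, where 9.0%, 4.53% and 6.01% of all genes were called higher. Postn, Aebp1 and Lrrc15 were past them at every time, with Postn at 0.69, 1.13 and 0.99 on the log2 scale. Cd248 was past them at 1-day (2.33-fold) and had a log2 difference of 0.00 at 1-week and 0.19 at 2-weeks. With housekeeping scaling the 1-day count was 3. Over all genes that scaling moved the balance of calls in these comparisons. For STR/ort against MRL/MpJ the calls were 1730 higher and 3075 lower at 1-week, against 2373 higher and 1848 lower with TMM, and 1795 higher and 771 lower at 2-weeks, against 1379 higher and 1014 lower. At 1-day they were 1628 higher and 2479 lower against 2262 higher and 1651 lower. For STR/ort against C57BL/6 they were 786 higher and 1036 lower at 1-day (991 higher and 820 lower with TMM), 1709 higher and 2578 lower at 1-week (2272 higher and 1579 lower) and 1345 higher and 602 lower at 2-weeks (852 higher and 841 lower). For C57BL/6 against MRL/MpJ at 1-day they were 1261 higher and 1263 lower against 1558 higher and 1005 lower.

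Marker sums in the contralateral joints differed between strains too. At 1-week the tendon sum was 383 to 531 CPM in MRL/MpJ, 542 to 713 CPM in C57BL/6 and 1298 to 2182 CPM in STR/ort, and the cartilage sum 1359 to 2360.1 CPM in MRL/MpJ, 1010.3 to 2902 CPM in C57BL/6 and 4194 to 5031 CPM in STR/ort. The osteoblast sum was 1357 to 1761 CPM in MRL/MpJ, 1331 to 1914 CPM in C57BL/6 and 2758 to 4036 CPM in STR/ort, and STR/ort stood above both other strains without overlap in all 3 of these sums. The fast muscle sum was 53838 to 80989 CPM in MRL/MpJ, 37080.0 to 62892 CPM in C57BL/6 and 25064 to 49639 CPM in STR/ort, and the macrophage sum 398 to 458 CPM in MRL/MpJ, 481 to 569 CPM in C57BL/6 and 495 to 775 CPM in STR/ort. STR/ort was lower than both without overlap in the sum of the proliferation markers, 2979 to 3586 CPM in MRL/MpJ, 3118 to 3531 CPM in C57BL/6 and 1442 to 2495 CPM in STR/ort, and lower than MRL/MpJ in the erythroid sum, 4772 to 5696 CPM in MRL/MpJ, 4085 to 5763 CPM in C57BL/6 and 1749 to 4459 CPM in STR/ort. At 1-day the tendon sum was 511 to 649 CPM in MRL/MpJ, 942 to 1528 CPM in C57BL/6 and 1128 to 2311 CPM in STR/ort, and at 2-weeks 301 to 331 CPM in MRL/MpJ, 345 to 447 CPM in C57BL/6 and 598 to 773 CPM in STR/ort. The part of these markers in the members' strain differences was not tested.

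**Figure D4:**
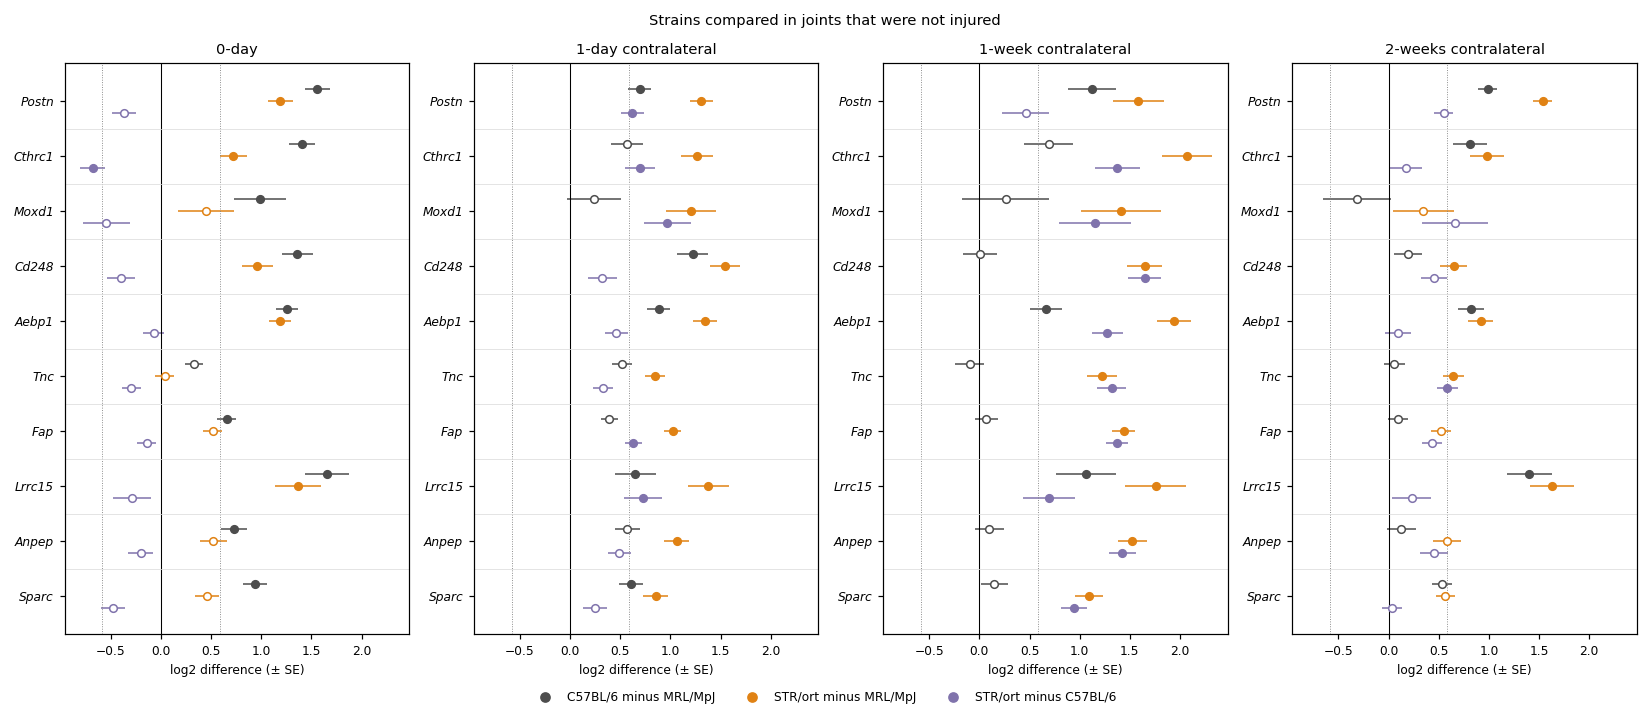
Log2 difference between strains (points, with SE bars) for each member in 0-day joints and in contralateral joints at 1-day, at 1-week and at 2-weeks, with filled points for members past the thresholds and dotted lines at 1.5-fold. STR/ort minus C57BL/6 lies below 0 for all members at 0-day and above 0 for all of them in the contralateral joints, reaching 1.65 for Cd248 at 1-week.

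As a description, the members stood higher in 1-week contralateral than in 0-day joints of STR/ort, and lower in those of C57BL/6. Within the first batch, contralateral joints were compared with the 0-day joints of the same strain, which are joints of other mice and, against 1-week, of younger ones. Age was not tested. The contralateral libraries are the lower side of the contrast that chose the genes, and such a choice favours genes with low contralateral values. The differences from 0-day are therefore given as a description, with no p for single members and nothing read from the counts. In STR/ort 8 of 10 members stood past the thresholds of the 0-day comparison as higher at 1-week, with 6.30% of all genes called higher. In C57BL/6 8 of 10 were past the same thresholds as lower, with 4.64% of all genes called lower. In MRL/MpJ 0 members passed in edgeR or DESeq2 and 0 had an unadjusted p under 0.05, and edgeR called 0% of all genes lower. Cd248 read 73.1, 51.3, 50.8 and 78.6 CPM in 0-day C57BL/6 joints and 25.6, 24.2, 27.9, 31.6 and 30.1 CPM in the 1-week contralateral ones (-1.20 ± 0.18). In STR/ort it read 55.1, 37.7, 53.7 and 50.6 CPM and then 92.0, 129.7, 45.1 and 81.6 CPM (0.84 ± 0.19). In MRL/MpJ it read 28.4, 21.2, 28.4 and 23.8 CPM and 28.7, 23.8, 29.0 and 30.4 CPM (0.14 ± 0.21). The C57BL/6 libraries of the 2 groups did not overlap, the STR/ort libraries overlapped through replicate 3, and the MRL/MpJ ranges overlapped.

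Tnc stood higher by 1.00 ± 0.13 on the log2 scale in STR/ort at 1-week, at 1316, 813, 941 and 859 CPM against 504, 561, 524 and 422 CPM at 0-day. This was more than it differed between injured and contralateral joints in any strain. Cthrc1 was higher by 1.09 ± 0.20, Anpep by 0.91 ± 0.16 and Fap by 0.85 ± 0.11. Postn (0.42 ± 0.20) and Sparc (0.52 ± 0.14, under 1.5-fold) were the members not past the thresholds in STR/ort. In C57BL/6, Sparc had log2 difference -0.90 ± 0.13 and Cthrc1 -0.97 ± 0.19, and Postn (-0.41 ± 0.19) and Lrrc15 (-0.32 ± 0.24) were not past the thresholds. Without C57BL/6 0-day replicate 4 the C57BL/6 count was 5, and with housekeeping scaling the STR/ort count was 5. Of all genes in STR/ort, 1091 higher and 1292 lower were called with TMM, 475 higher and 2019 lower with housekeeping scaling and 703 higher and 273 lower with 1 RUVg factor, a covariate estimated from the housekeeping genes.

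At 1-day, described in the same way, fewer members were past the thresholds in STR/ort and C57BL/6. Cd248 (0.64 ± 0.18) and Tnc (0.63 ± 0.12) were past them as higher in STR/ort, 2 of 10 members where 3.09% of all genes were called higher. This count was 0 without STR/ort contralateral replicate 2, and 1 without its replicate 4 or 0-day replicate 2 or 4. It was 0 with housekeeping scaling or with 1 RUVg factor, where the calls over all genes, 535 higher and 1201 lower with TMM, were 140 higher and 1883 lower and 52 higher and 64 lower. In C57BL/6 Cthrc1 was past the thresholds as lower (-0.88 ± 0.19), with 0.0578% of all genes called lower. This count of 1 was 0 with RLE size factors, with filterByExpr or with housekeeping scaling, and 0 without any of 7 of the 9 libraries, the exceptions being 0-day replicate 3 and contralateral replicate 2. Moxd1 (-1.03 ± 0.26), Lrrc15 (-0.94 ± 0.25) and Postn (-0.71 ± 0.19) had C57BL/6 differences that were not past the thresholds at 1-day, each of larger size than at 1-week. In MRL/MpJ 0 of 10 members passed at 1-day in edgeR or DESeq2, with 0 at an unadjusted p under 0.05, where 0.0404% of all genes were called lower.

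The difference between strains in this shift was fitted as an interaction, with members counted at an adjusted p under 0.05 over all genes. It rests on the same contralateral libraries, and against C57BL/6 in part on the lower values there, so it is given as a description and nothing is read from its counts. At 1-week the shift in STR/ort exceeded that in C57BL/6 for 10 of 10 members, against 19.4% of all genes, from 0.83 for Postn to 2.06 for Cthrc1. It exceeded that in MRL/MpJ for 6 members, Cthrc1 (1.36), Tnc (1.19), Anpep (1.02), Fap (0.93), Aebp1 (0.77) and Sparc (0.65), against 11.4% of all genes. The shift in C57BL/6 was below that in MRL/MpJ for 3 members, Cd248 (-1.35), Sparc (-0.77) and Fap (-0.58), against 1.74% of all genes, and this count was 1 without any of MRL/MpJ 0-day replicate 1 or 3, MRL/MpJ contralateral replicate 4, C57BL/6 0-day replicate 4 or C57BL/6 contralateral replicate 2. At 1-day 9 of 10 members were counted between STR/ort and C57BL/6 (9.06% of all genes), 2 between STR/ort and MRL/MpJ (6.55%) and 0 between C57BL/6 and MRL/MpJ (0.0116% called lower). For that last pair edgeR gave 3 members at an unadjusted p under 0.05 and DESeq2 counted 0. The 9 became 4 with housekeeping scaling or with 1 RUVg factor, and the 2, Fap (0.50) and Tnc (0.80), became 1 without MRL/MpJ 0-day replicate 4 or STR/ort 0-day replicate 4 or with housekeeping scaling, and 0 with 1 RUVg factor. Over all genes the 1-day calls for STR/ort against C57BL/6 were 1569 higher and 1452 lower with TMM, 473 higher and 1779 lower with housekeeping scaling and 167 higher and 52 lower with 1 RUVg factor. Against MRL/MpJ they were 1133 higher and 1343 lower, 192 higher and 2714 lower and 13 higher and 43 lower. At 1-week housekeeping scaling turned 3351 higher and 2429 lower against C57BL/6 into 1877 higher and 3826 lower, and 1967 higher and 1673 lower against MRL/MpJ into 462 higher and 3797 lower (734 higher and 265 lower with 1 RUVg factor). For C57BL/6 against MRL/MpJ it gave 25 higher and 414 lower in place of 73 higher and 301 lower.

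Markers of other tissues shifted in the same contralateral joints. The summed fast muscle markers in STR/ort lay at 68092 to 77272 CPM at 0-day, 28202 to 48930.3 CPM at 1-day and 25064 to 49639 CPM at 1-week, with 6 and 6 of 6 called lower. The macrophage sums were 338 to 418 CPM at 0-day, 523 to 614 CPM at 1-day and 495 to 775 CPM at 1-week, with 3 and 5 of 6 called higher. The tendon sums in STR/ort were 864 to 1355 CPM, 1128 to 2311 CPM and 1298 to 2182 CPM at the same times, with 2 and 2 of 6 called higher and some overlap with 0-day. The osteoblast sum there was 1979.6 to 2779 CPM at 0-day and 2758 to 4036 CPM at 1-week. In C57BL/6 at 1-week 6 of 6 cartilage, 5 of 6 osteoblast and 5 of 6 tendon markers fell. The cartilage sum was 1968 to 6008 CPM at 0-day and 1010.3 to 2902 CPM at 1-week, and the tendon sum was 1211 to 1741 CPM and 542 to 713 CPM. The erythroid sum went from 3024 to 3609 CPM to 4085 to 5763 CPM and the sum of the proliferation markers from 2174 to 2552 CPM to 3118 to 3531 CPM, both without overlap and without a call for any single marker. The endothelial sum of STR/ort was 321 to 353 CPM at 0-day and 275 to 317 CPM at 1-day, also without overlap. What part these tissues had in the members' shifts was not tested.

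**Figure D5:**
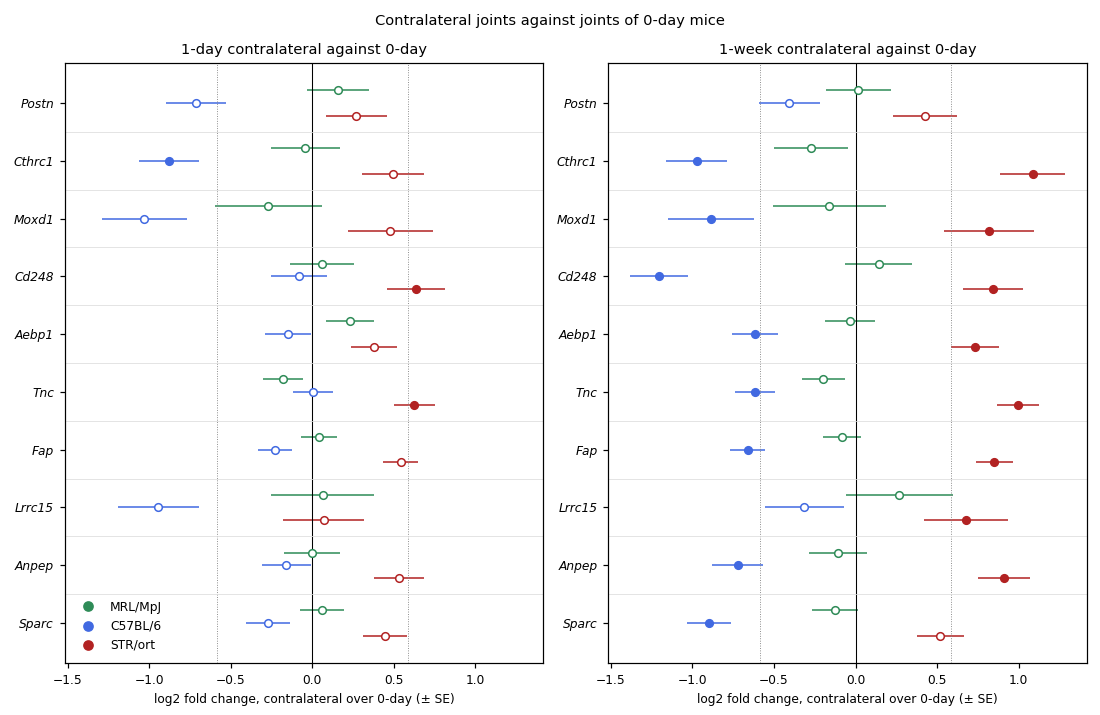
Log2 fold change of contralateral joints at 1-day and 1-week over 0-day joints of the same strain (points, with SE bars), with filled points for members past the thresholds and dotted lines at 1.5-fold. At 1-week all STR/ort points lie to the right of 0, all C57BL/6 points to the left (Cd248 at -1.20), and MRL/MpJ near it.

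Levels over all 21 groups cross the 2 batches, so the following spans and orders hold any batch difference as well. Over these groups, the mean of Moxd1 spanned 39.3-fold, that of Postn 36.3-fold, that of Cthrc1 35.6-fold and that of Lrrc15 30.8-fold, whereas Tnc spanned 3.81-fold and Fap 4.21-fold. The lowest mean was in the contralateral MRL/MpJ joints at 2-weeks for 8 members, and those libraries are of the second batch. The injured STR/ort libraries at 1-week stood clear of the group next to them by mean in 8 of the 10 members. For Cd248 they overlapped the injured C57BL/6 joints of 1-day (114, 86.7, 98.5, 142 and 98.2 CPM), and for Fap the contralateral STR/ort joints of 1-week. Tnc also overlapped those contralateral joints, a group further down by mean. Their highest library read 1316 CPM and the lowest injured one 1174 CPM. Below the highest group the order was not resolved, since 17 to 20 of the 20 pairs of neighbouring groups overlapped for each member.

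The injury response of related genes was tested on 3 other lists. Their members were not picked by a measured rule, but the lists were drawn up with earlier results of these data known. Of 22 other matricellular genes, 4, 9 and 2 rose at 1-day in MRL/MpJ, C57BL/6 and STR/ort, 11, 11 and 10 at 1-week and 8, 9 and 11 at 2-weeks. Of 24 other fibroblast genes the counts were 9, 12 and 6, 16, 17 and 16 and 8, 9 and 14 in the same order. Over all genes 1.53%, 4.26% and 1.61% rose at 1-day, 2.93%, 4.75% and 5.67% at 1-week, and 1.14%, 2.88% and 4.34% at 2-weeks. The median log2 fold change at 1-week was 0.77, 0.81 and 0.67 over the matricellular list and 0.78, 0.76 and 0.76 over the fibroblast list.

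Wisp2 (a CCN-family matricellular gene), Pdpn (podoplanin, a surface glycoprotein of synovial lining fibroblasts) and Timp1 (an inhibitor of metalloproteinases) rose in all 9 comparisons. Timp1 was highest at 1-day, with log2 fold changes of 2.22 ± 0.22, 2.33 ± 0.20 and 2.35 ± 0.20 in MRL/MpJ, C57BL/6 and STR/ort (adjusted p = 2.93e-08, 1.02e-09 and 1.03e-09). Pdpn rose by 1.67 ± 0.14 in STR/ort at 1-day (adjusted p = 7.9e-10), at the time when Postn and Lrrc15 in the same joints stood at 0.42 and -1.10. The weak 1-day values of the members in STR/ort were thus not shared by every fibroblast gene. Tnn, which encodes tenascin W, had the largest mean change of the matricellular list and rose by 3.23 ± 0.30 in STR/ort at 1-week (adjusted p = 6.53e-09), against 0.62 for its relative Tnc.

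Calls in the other direction came mainly from STR/ort at 1-day. There Nov (-1.50 ± 0.17, adjusted p = 2.54e-07), Sparcl1 (-1.11 ± 0.14, adjusted p = 1.34e-06), Tnxb (-0.98 ± 0.16, adjusted p = 5.4e-05) and Comp (-0.60 ± 0.19, adjusted p = 0.0387) fell, 4 of 22 matricellular genes where 2.70% of all genes fell. Of all genes 279 higher and 467 lower were called there with TMM, 225 higher and 661 lower with housekeeping scaling and 310 higher and 340 lower with 1 RUVg factor. Nov is a CCN-family gene, Sparcl1 a relative of Sparc, Tnxb encodes tenascin X and Comp the cartilage oligomeric matrix protein. Tnxb had the smallest mean change of its list and also fell in C57BL/6 at 1-day (-0.68 ± 0.16, adjusted p = 0.00201), where 1.34% of all genes fell, and in STR/ort at 1-week (-1.24 ± 0.16, adjusted p = 1.61e-06), where 3.54% fell. Nov also fell in MRL/MpJ at 1-day (-0.87 ± 0.21, adjusted p = 0.00942), where 0.497% of all genes fell. None of the 24 fibroblast genes was called lower in any of the 9 comparisons, and Gli1, a Hedgehog target, had the smallest mean change, -0.03.

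The third list held relatives of the enzymes and receptors among the members. Of its 10 genes 0, 0 and 0 rose at 1-day, 2, 2 and 3 at 1-week and 2, 2 and 3 at 2-weeks in MRL/MpJ, C57BL/6 and STR/ort. At 1-day 3, 3 and 2 of them had an unadjusted p under 0.05 in edgeR and were higher, and DESeq2 called 0 higher. The median log2 fold change at 1-week was 0.16, 0.21 and 0.02. Cpxm2, a carboxypeptidase-like relative of Aebp1, had the largest mean change, with 1.34 ± 0.17, 1.31 ± 0.15 and 1.36 ± 0.15 at 1-week, and fell in STR/ort at 1-day (-0.71 ± 0.17, adjusted p = 0.00444), a call lost with 1 RUVg factor. Dpp4, the protease most closely related to Fap, had the smallest mean change, -0.14, and was called in none of the 9 injury comparisons.

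At 0-day, 14 of 22 matricellular, 18 of 24 fibroblast and 6 of 10 enzyme and receptor genes were higher in C57BL/6 than in MRL/MpJ and 0 were lower, where 9.64% of all genes were higher and 6.26% lower. STR/ort exceeded MRL/MpJ in 9, 11 and 6 genes of the 3 lists, again with none lower, where 8.34% of all genes were higher and 6.44% lower. Between STR/ort and C57BL/6, 3, 2 and 0 were higher in STR/ort, where 7.82% of all genes were, and 3, 5 and 1 were lower, where 5.99% of all genes were.

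Libraries of the same group that were high in a member tended to be high in the others. After removal of the 21 group means, the Pearson correlation of log2 CPM over the 100 libraries was above 0 in 44 of 45 pairs of members, with a median of 0.50, and these values share library and scaling and carry no p. Postn and Cthrc1 (0.78), Postn and Lrrc15 (0.73) and Cd248 and Aebp1 (0.72) were the closest pairs, and Cd248 and Tnc (-0.02) the least close. The mean deviation of the 10 members correlated at 0.75 with that of the summed tendon markers, 0.49 with mural cell, 0.43 with endothelial, -0.06 with fast muscle and -0.48 with erythroid markers. Over the 21 group means, Fap was most like Sparc (r = 0.94) and Postn most like Cthrc1 (r = 0.98).

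The non-members whose 21 group means of log2 CPM were most like the mean standardised profile of the members were Col6a1 (r = 0.984), Mmp14 (r = 0.983), Dsel (r = 0.983), Dbn1 (r = 0.981), Lamb1 (r = 0.981), Col6a2 (r = 0.979), Cnn3 (r = 0.978), Ppic (r = 0.977), Kdelc2 (r = 0.974) and Zfp354c (r = 0.974). Col6a1 and Col6a2 encode chains of collagen VI, Mmp14 a membrane-anchored collagenase, Lamb1 a laminin chain, and Cnn3 and Dbn1 actin-binding proteins. The members' own correlation with that profile, which contains them, ran from 0.81 for Fap to 0.98 for Aebp1. With the 100 libraries in place of the group means, 6 of these 10 genes were again among the 10 most alike. These profiles also cross the batches.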

How the data were processed

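The deposited table held read counts per RefSeq gene for 100 libraries, made by the authors from poly(A)-selected, TruSeq-prepared RNA by alignment to mm10 with TopHat2 2.0.11 and counting with featureCounts, and they filtered low genes. Of 17313 rows, 3 exact repeats of other rows (Cd3d, Mmp3 and Sparc) were dropped, so each gene was counted once. Libraries were scaled with TMM and tested with edgeR 4.0.16 (quasi-likelihood F test, R 4.3.3), with Benjamini-Hochberg adjustment over all 17310 genes and a call at an adjusted p under 0.05 and a difference above 1.5-fold. Interactions were called on the adjusted p alone. Log2 CPM used a prior count of 2, and SE was the log2 difference over the square root of F. One model was fitted per time point, and another to the 40 uninjured libraries of the first batch.

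The members and the gene lists were chosen with earlier results of these data known. Text names all 10 members, the genes of the other lists called in all 9 injury comparisons, with the largest or smallest mean change or called lower in any, and the 10 non-members most alike in profile. At 0-day, 1-day and 1-week no label ties joints to mice, so p-values there measure the spread between libraries, which may be partly technical. At 2-weeks a shared code in the labels, read as the mouse, ties the joints into 15 pairs. Same-numbered joints there correlated at 0.13 to 0.21 in C57BL/6, 0.14 to 0.26 in STR/ort and -0.16 to 0.08 in MRL/MpJ, as deviations from group means.

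Alternatives were RLE size factors, scaling by 25 housekeeping genes, 1 RUVg factor (a covariate estimated from those genes), filterByExpr, DESeq2 1.42.0, a replicate block, a fit on contralateral libraries alone and each library left out. The fits were tested on simulated data. Depth was 6182016 to 20986027 counts per library.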

Additional observations from a re-analysis of the deposited data

Results flagged for a closer look

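In each group of 4 or 5 libraries the gap of the highest and the lowest library to its neighbour was compared with the range of the group. Of 210 combinations of member and group 18 passed Dixon's 95% value, where chance flags about 1 in 20. Several libraries were flagged for more than one gene. C57BL/6 injured replicate 5 at 1-week was the highest for Cthrc1 (175 CPM), Aebp1 (428 CPM) and Sparc (4800 CPM). C57BL/6 contralateral replicate 3 at 1-week was the highest for Cthrc1 (33.5 CPM) and Moxd1 (2.77 CPM). MRL/MpJ injured replicate 3 at 1-week was the highest for Moxd1 (11.6 CPM) and Aebp1 (272 CPM). STR/ort contralateral replicate 2 at 1-day was the highest for Anpep (57.5 CPM) and Sparc (6390 CPM), and MRL/MpJ injured replicate 3 at 2-weeks was the lowest for Postn (221 CPM) and Anpep (17.2 CPM).

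The other flagged values were single. Cthrc1 stood apart in MRL/MpJ 0-day replicate 4 (20.9 CPM, highest), MRL/MpJ contralateral replicate 3 at 2-weeks (14.6 CPM, highest) and C57BL/6 contralateral replicate 3 at 2-weeks (14.1 CPM, lowest). Moxd1 was highest in STR/ort contralateral replicate 4 at 1-week (7.43 CPM), Fap in STR/ort injured replicate 5 at 1-week (342 CPM), Lrrc15 in MRL/MpJ injured replicate 4 at 2-weeks (16.9 CPM) and Anpep in STR/ort 0-day replicate 1 (35.5 CPM).

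The shift of contralateral against 0-day joints passed an interaction test between strains for some members. The contralateral libraries are part of the contrast that chose the members, and the choice favours low values there, so these counts are a description with nothing read from them. At 1-day the count was 2 members between STR/ort and MRL/MpJ and 9 between STR/ort and C57BL/6. At 1-week it was 6 members between STR/ort and MRL/MpJ, 10 between STR/ort and C57BL/6 and 3 between C57BL/6 and MRL/MpJ.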

How the results depend on the processing

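No call reversed its direction under any alternative. With housekeeping scaling the count of members called was 3 in place of 5 in contralateral joints at 1-day for C57BL/6 against MRL/MpJ and also for STR/ort against C57BL/6, and 4 in place of 1 at 2-weeks for STR/ort against C57BL/6. For contralateral against 0-day joints it was 0 in place of 1 in C57BL/6 at 1-day, 0 in place of 2 in STR/ort at 1-day and 5 in place of 8 in STR/ort at 1-week. For the interaction at 1-day it was 4 in place of 9 for STR/ort against C57BL/6 and 1 in place of 2 for STR/ort against MRL/MpJ. This scaling moved the median of all genes by -0.28 to 0.14 on the log2 scale, by over 0.1 in 16 of 51 contrasts. With 1 RUVg factor the STR/ort 1-day count was 0, the 2 interaction counts at 1-day were 4 and 0, and the enzyme and receptor list had 0 calls at 1-day in place of 1. RLE size factors and filterByExpr each gave 0 in C57BL/6 at 1-day. DESeq2 moved no count of calls by over 1.5 times. The cause of these changes was not tested.

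When single libraries were dropped, the counts ran from 0 to 2 for STR/ort against C57BL/6 at 0-day, 2 to 5 in their contralateral joints at 1-day and 0 to 2 at 2-weeks. For contralateral against 0-day joints they ran from 0 to 1 in C57BL/6 and 0 to 3 in STR/ort at 1-day, and from 5 to 9 in C57BL/6 and 6 to 10 in STR/ort at 1-week. The interaction counts ran from 1 to 2 for STR/ort against MRL/MpJ at 1-day and 1 to 3 for C57BL/6 against MRL/MpJ at 1-week, and the enzyme and receptor list had 1 to 2 calls at 1-day. Of the 10 genes most like the members 6 remained over the 100 libraries. A replicate block, which pairs mice by label at 2-weeks only, changed no call by over 1.5 times. With it the calls summed over strains at 1-day, at 1-week and at 2-weeks were 22, 32 and 28 for the matricellular list, 28, 49 and 30 for the fibroblast list and 1, 8 and 7 for the enzyme and receptor list. Every same-numbered pair correlated above 0.1 in STR/ort at 1-week, 4 of 4, and not in the other 1-day and 1-week groups.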
